A study of Homo sapiens with 16 samples.

Results

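Interferon-stimulated genes are genes whose transcription is switched on by interferon, and 49 of them were followed here in the human multiple myeloma cell line LP-1. The members were taken from a list of genes that respond to type I interferon, which covers RNA sensors, the IFIT, IFITM, OAS, MX and GBP families, ISG15 and its enzymes, ADP-ribosyltransferases and single genes such as RSAD2 and LY6E. Of the 49 members, 48 had a matched probe and 46 could be tested, out of 20503 gene symbols matched and 16398 tested on the array. No probe was matched to IFI27, whose level is not analysed here, and HERC6 and IFI44L were not well above background on both arrays of any condition.

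The arrays compared LP-1-cIAP2-eGFP cells with control LP-1-eGFP cells. A lentiviral vector had brought either cIAP2 together with eGFP, or eGFP alone, into the cells, which were then sorted for eGFP, so that all samples came from 1 parental cell line. The labels name 1 line for each vector, so that cIAP2 and any other difference between the lines cannot be told apart. cIAP2 is a ubiquitin ligase of the inhibitor of apoptosis family and is encoded by BIRC3. Cells of each line were left untreated or given 10 nM bortezomib, a proteasome inhibitor, and RNA was collected after 6 h and 24 h. The 8 conditions had 2 biological replicates each, which gave 16 single-colour arrays of 58717 gene spots, and this number of arrays limits the precision. Levels are quantile-normalized signals on the log2 scale and differences are log2 differences with a standard error from limma. A signal is called above background where the scanner software marked it as well above background.

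Type I interferons bind the receptor formed by IFNAR1 and IFNAR2, and the receptor kinases then activate a transcription complex that contains STAT2 and IRF9. This complex binds interferon-stimulated response elements, which carry a repeat of the letters GAAA, in front of its target genes. The products sense viral RNA, block translation, modify proteins with ISG15 or restrict membrane fusion, and several are also produced at a basal level in tumour cells that are not exposed to interferon.

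In the RefSeq promoter table of GRCh38.p14, which holds 250 bases before and 50 bases after each gene's start, 39 of the 49 members had an entry. The letters GAAA, any 2 bases and GAAA, searched on both strands with no other motif searched, were present in 26 of these (66.7%) and in 996 of all 27305 promoters (3.65%). Below are windows of 30 bases, in the direction of the gene, for 4 genes that were lower in LP-1-cIAP2-eGFP cells and for 3 genes that rose with bortezomib, with the match in capitals (TTTC, any 2 bases and TTTC where it lies on the opposite strand). These windows are chr1:1013380-1013409 (plus strand) for ISG15, chr21:41420559-41420588 (plus) for MX1, chr11:314024-314053 (plus) for IFITM1, chr1:27672288-27672317 (minus) for IFI6, chr10:89327865-89327894 (plus) for IFIT3, chr10:89392510-89392539 (plus) for IFIT1 and chr1:78649761-78649790 (plus) for IFI44.
ISG15: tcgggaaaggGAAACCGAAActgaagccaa
MX1: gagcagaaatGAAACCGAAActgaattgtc
IFITM1: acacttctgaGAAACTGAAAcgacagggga
IFI6: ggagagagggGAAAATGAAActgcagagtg
IFIT3: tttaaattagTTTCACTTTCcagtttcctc
IFIT1: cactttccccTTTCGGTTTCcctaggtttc
IFI44: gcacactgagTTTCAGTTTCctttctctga

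The letters began 6 bases before the start of IFITM1, 18 bases before that of IFI44 and 11 bases after that of MX1. A match describes these letters only. Among tested members with a promoter entry, 4 of the 7 genes called lower in LP-1-cIAP2-eGFP cells held it, as did 20 of the 29 genes that were not called. With bortezomib at 24 h the letters were present for 9 of the 12 genes that rose, 2 of the 3 that fell and 13 of the 21 not called in control cells, and for 9 of 10, 3 of 4 and 12 of 22 in LP-1-cIAP2-eGFP cells.

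The array labels and cell identity were checked first. The BIRC3 probe lies, according to the study's methods, in the 3′ untranslated region and detects the endogenous transcript only, so that it does not measure the transgene. Its level in untreated control cells was 13.57, 13.67, 13.54 and 13.55, against 11.92, 12.13, 11.92 and 12.06 in untreated LP-1-cIAP2-eGFP cells, a difference of -1.57 ± 0.11 (standard error; adjusted p = 2.24e-05, limma). Endogenous BIRC3 was therefore lower on every untreated array of the line labelled as overexpressing cIAP2. All 9 plasma cell markers were tested and 7 of them, including SDC1, TNFRSF17, CD38 and XBP1, were above background on all 16 arrays. Some of them differed between the untreated lines. SDC1 was at 12.82 to 13.19 in LP-1-cIAP2-eGFP cells and at 11.22 to 11.62 in control cells. MZB1 was also higher in LP-1-cIAP2-eGFP cells, while CD38 and XBP1 were lower at each time. Their part in the line difference was not tested. None of the 4 T cell markers was above background on all arrays, although each was so on at least 10 of them. Of the monocyte markers CD14 was above background on 13 arrays, while CD163 and CSF1R never had both arrays of a condition above it. Of the dendritic cell markers LILRA4 was above background on 12 arrays and GZMB on all 16, while CLEC4C never had both arrays of a condition above it. The epithelial keratins KRT8 and KRT18 were above background on all 16 arrays, and EPCAM and CDH1 did not enter the test.

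One array stood apart. The array of bortezomib-treated LP-1-cIAP2-eGFP cells at 24 h, replicate 1, had 35.5% of spots above background, against 49.0% to 71.1% on the other arrays. The difference between its values and those of its replicate had an SD of 1.48 over probes, against 0.495 to 0.773 in the other 7 conditions. Counts or values without it stand beside the main results that rest on it. The arrays also came from 2 slides of 8, and slide 1 carried 6 of the 8 LP-1-cIAP2-eGFP arrays.

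The first comparison asked how the members differed between the lines. The interferon-inducible genes PARP9, IFITM1, MX1, RSAD2, ISG15, LY6E, HELZ2 and IFI6 were lower in LP-1-cIAP2-eGFP cells when the lines were compared over both treatments and times, and no member was higher. These 8 of 46 passed the study's thresholds, an adjusted p below 0.001 together with a change over 2-fold in untreated cells, whereas 3.39% of all tested genes passed in either direction, 2.43% as lower and 0.958% as higher. The median difference was -0.41 over the members and -0.01 over all genes, and 40 of the 46 members had a negative value. With slide as a block 3 members were called as lower, where 1.35% of all genes were. At an adjusted p under 0.05 with no fold limit, 27 members were lower and 2, PLSCR1 and SP100, were higher, where 21.8% of all genes passed in either direction, 12.7% as lower and 9.04% as higher. RSAD2, 1 of the 8, entered the test through the control arrays alone and had to be lower to be called. When only genes with a condition above background in each line were counted, which left out GBP1, IFIT2, OASL, RSAD2 and TRIM22, 7 of 41 members were lower, where 2.18% of all such genes were. In bulk RNA, fewer cells with a transcript and less of it per cell cannot be told apart.

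**Figure D1:**
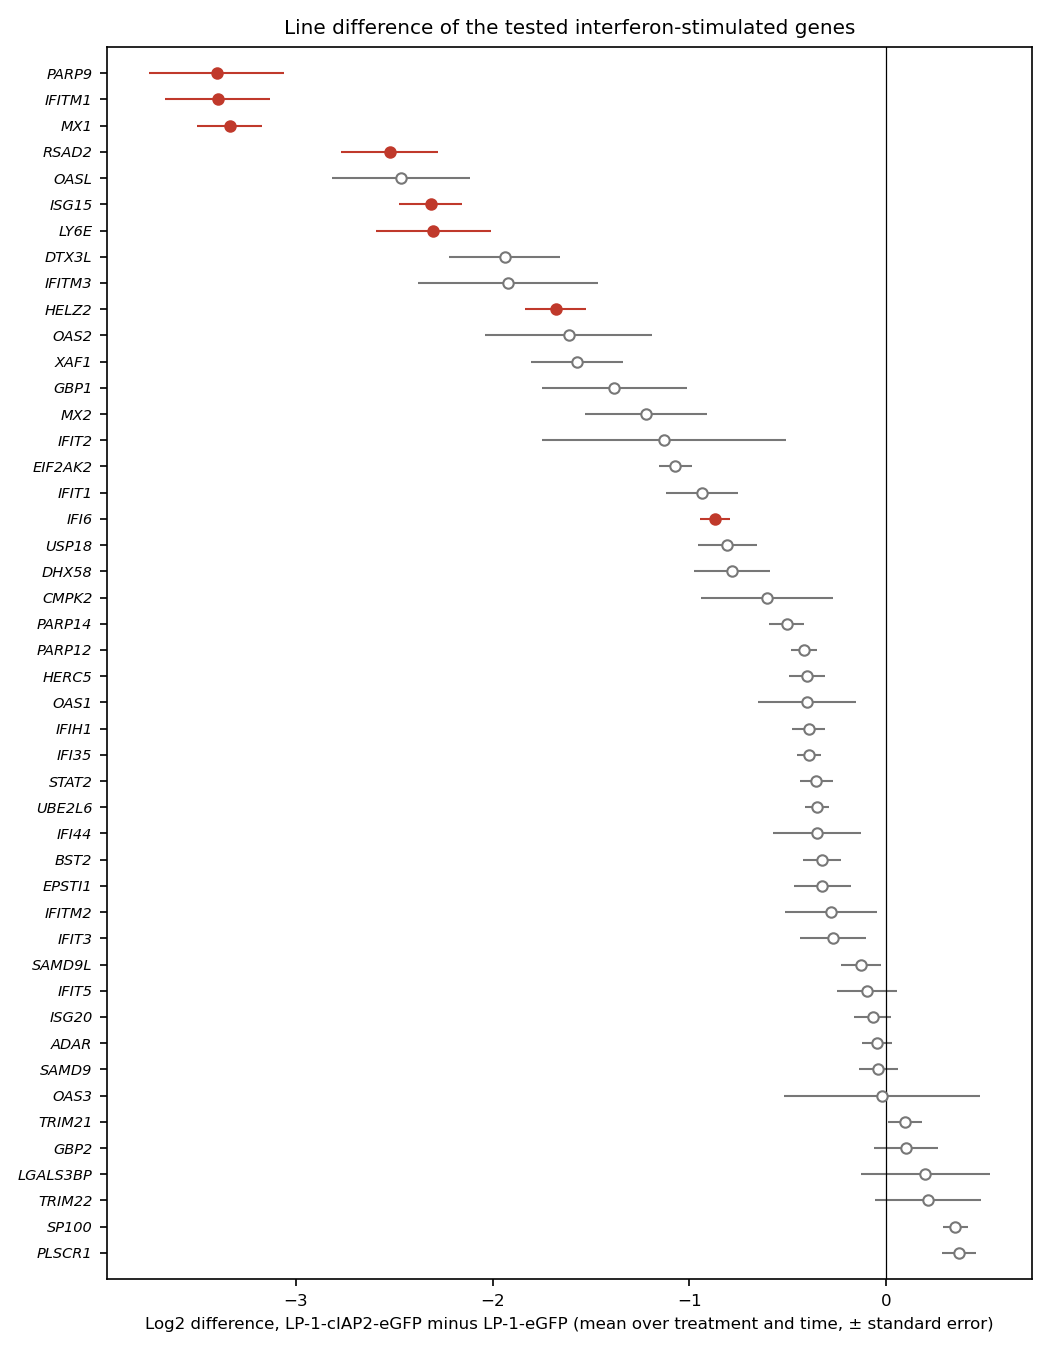
Line difference of the 46 tested interferon-stimulated genes, as the log2 difference of LP-1-cIAP2-eGFP minus LP-1-eGFP averaged over treatment and time, with the standard error as bars. Filled red points passed the thresholds and open grey points did not. Values ran from -3.40 for PARP9 to 0.37 for PLSCR1, and 40 of the 46 lay below 0.

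PARP9 is the partner of the ubiquitin ligase DTX3L in ADP-ribosylation. In control cells the PARP9 level had a lowest value of 6.32, a median of 8.14 and a highest value of 8.70 over 8 arrays, against 2.77, 4.83 and 5.67 in LP-1-cIAP2-eGFP cells. The difference was -3.40 ± 0.34 (adjusted p = 1.19e-04) and the arrays of the lines did not overlap, although in LP-1-cIAP2-eGFP cells PARP9 was above background on only 4 of 8 arrays, so that the size of the difference rests partly on signals at background. A second PARP9 probe gave the same difference, -3.40. DTX3L itself differed by -1.94 ± 0.28 (adjusted p = 0.00118) and missed the threshold. The other ADP-ribosyltransferases PARP12 and PARP14 differed by -0.42 and -0.51.

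Of the membrane proteins that restrict virus entry, IFITM1 had control levels with a lowest value of 8.89, a median of 10.52 and a highest value of 11.13, over 7 arrays because its spot was left out on the first bortezomib array at 24 h. In LP-1-cIAP2-eGFP cells the lowest, median and highest values were 3.56, 7.30 and 8.11. Each array lay below every control array, and the difference was -3.40 ± 0.27 (adjusted p = 5.26e-05). A second IFITM1 probe gave -2.88. IFITM3, its close paralogue, had a lowest value of 7.66, a median of 9.10 and a highest value of 9.62 in control cells, against 3.87, 7.49 and 7.70 in LP-1-cIAP2-eGFP cells. Its difference of -1.92 ± 0.46 had an adjusted p of 0.0177 and was not called. IFITM2 ranged from 5.61 to 7.63 in control cells and from 5.46 to 6.38 in LP-1-cIAP2-eGFP cells, and its difference was -0.28 ± 0.24 (adjusted p = 0.496). Because the IFITM genes are similar in sequence, their probes may share signal.

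LY6E, a lipid-anchored surface protein, was the other member of the membrane group that was called. Its lowest, median and highest levels were 9.56, 11.21 and 11.48 in control cells and 4.90, 9.25 and 9.90 in LP-1-cIAP2-eGFP cells, with a difference of -2.30 ± 0.29 (adjusted p = 5.31e-04). The lines overlapped only across conditions, since both LP-1-cIAP2-eGFP arrays were below both control arrays within each of the 4 conditions. BST2 (tetherin), which holds budding virus at the membrane, differed by -0.33 and PLSCR1, a phospholipid scramblase, by 0.37.

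MX1 encodes a dynamin-like GTPase that blocks viral nucleocapsids. Its lowest, median and highest control levels were 9.0, 9.25 and 9.75, and those of the 7 measured LP-1-cIAP2-eGFP arrays were 5.38, 5.90 and 6.37. The spot of the second untreated LP-1-cIAP2-eGFP array at 24 h had been left out. The gap between the lines exceeded the range within either of them, and the difference of -3.34 ± 0.17 (adjusted p = 3.74e-06) had the smallest adjusted p of the members. MX2 differed by -1.22 ± 0.31 (adjusted p = 0.0242) and GBP2 by 0.10 ± 0.16 (adjusted p = 0.741). No fold is given for GBP1, which was at background on all LP-1-cIAP2-eGFP arrays.

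RSAD2 encodes viperin, an enzyme that makes an antiviral nucleotide. In LP-1-cIAP2-eGFP cells it stayed at background on all 8 arrays, where values lay between 3.51 and 5.11, and it was above background on all 8 control arrays, where they lay between 5.30 and 8.33. RSAD2 was therefore at least 2.71-fold lower in LP-1-cIAP2-eGFP cells (adjusted p = 9.92e-05), a bound set by the dimmest probe still marked as above background on each of those arrays. OASL, a protein related to the oligoadenylate synthetases, showed the same pattern of detection and was at least 2.38-fold lower, with an adjusted p of 0.00104 that missed the threshold. GBP1 and TRIM22 were also below background on every LP-1-cIAP2-eGFP array. These 4 members entered the test through the control arrays alone.

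ISG15, a ubiquitin-like protein that is attached to other proteins, was among the members detected on all 16 arrays. Its control levels had a lowest value of 11.70, a median of 11.94 and a highest value of 12.69. In LP-1-cIAP2-eGFP cells these were 9.45, 9.60 and 10.73. The difference was -2.31 ± 0.16 (adjusted p = 1.11e-05). The enzymes of ISG15 conjugation differed less, with -0.35 for the conjugating enzyme UBE2L6, -0.40 for the ligase HERC5 and -0.81 for USP18, which removes ISG15.

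HELZ2, a helicase that acts as a transcriptional co-activator, had lowest, median and highest levels of 9.72, 10.18 and 10.92 in control cells and 8.03, 8.48 and 9.45 in LP-1-cIAP2-eGFP cells. The lines did not overlap and the difference was -1.68 ± 0.16 (adjusted p = 6.71e-05), while a second, dimmer HELZ2 probe, above background on only 3 of 8 LP-1-cIAP2-eGFP and 5 of 8 control arrays, gave -0.18. For IFI6, an interferon-induced membrane protein, the corresponding levels were 10.23, 10.38 and 10.88 against 9.30, 9.62 and 9.70, and the difference was -0.87 ± 0.08 (adjusted p = 4.46e-05). This averaged change is under 2-fold. Between the untreated lines IFI6 differed by -0.90 at 6 h and by -1.10 at 24 h, so that its call lay close to the fold limit. STAT2 ranged from 13.91 to 15.55 in control cells and from 13.51 to 15.27 in LP-1-cIAP2-eGFP cells, with a difference of -0.35 ± 0.08 (adjusted p = 0.0158).

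**Figure D2:**
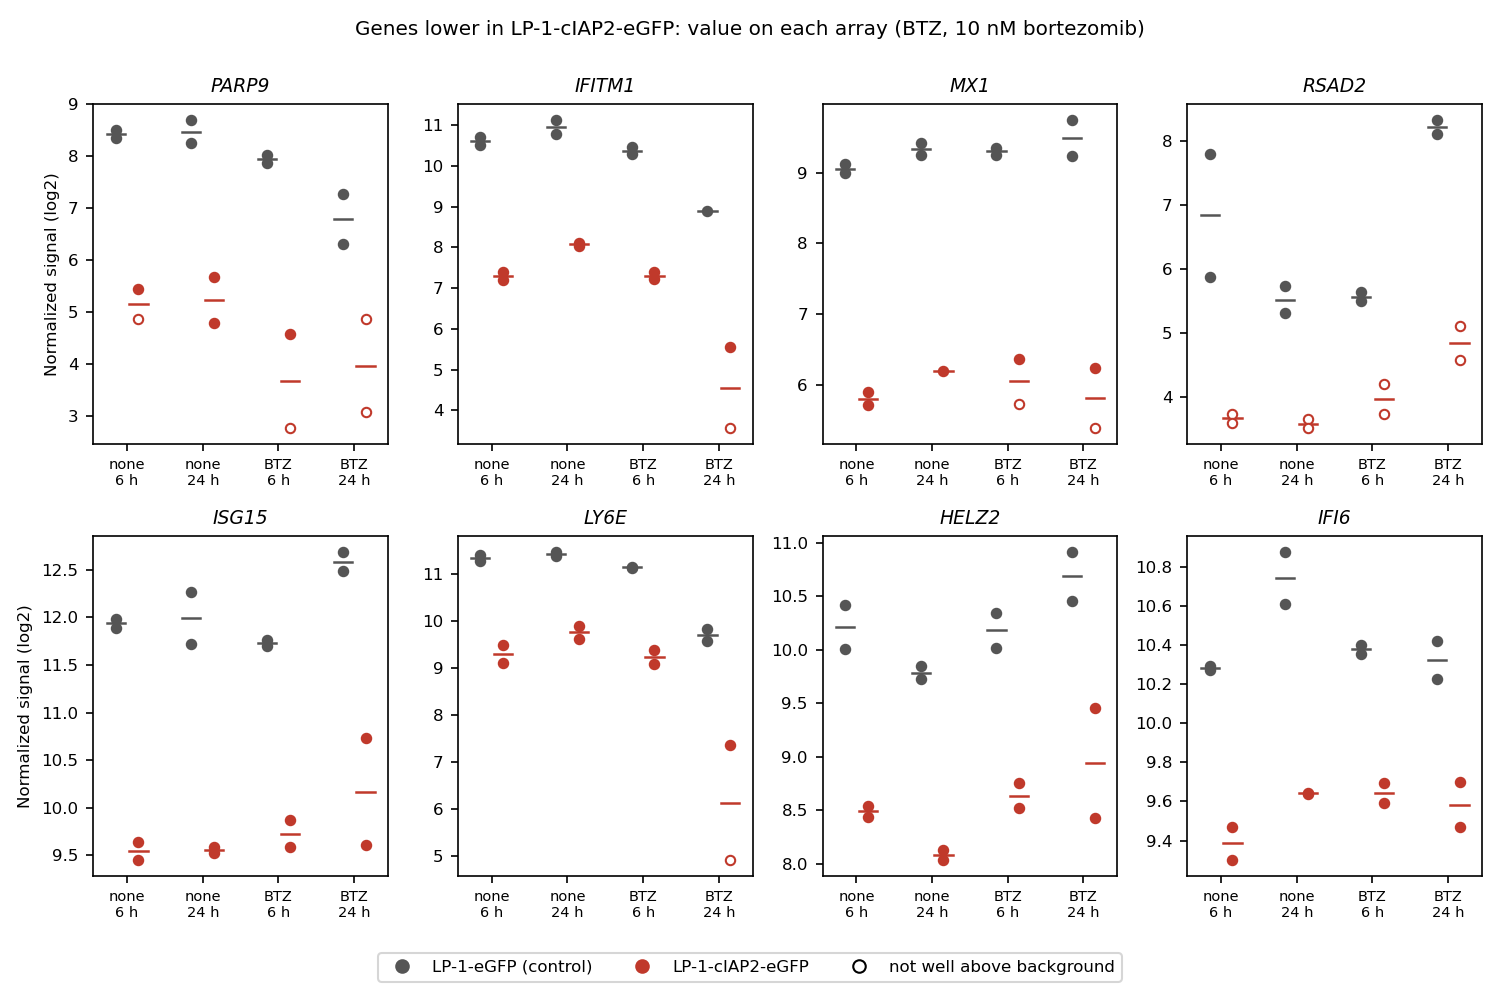
Normalized log2 signal of the 8 called genes on each array, by treatment (none or bortezomib, BTZ) and time; red, LP-1-cIAP2-eGFP; grey, LP-1-eGFP; horizontal lines, condition means; open circles, not well above background. In every condition both red points lie below both grey points where all 4 were measured, and all RSAD2 points of LP-1-cIAP2-eGFP are open.

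The decrease was not shared by all members. ADAR, an RNA-editing enzyme, differed by -0.04, SAMD9L by -0.13, IFIT5 by -0.10, the exonuclease ISG20 by -0.07 and TRIM21 by 0.09, and none of them passed an adjusted p of 0.05. Both LP-1-cIAP2-eGFP arrays lay below both control arrays in each of the 4 conditions for 18 of the 46 members, and above them for 1, SP100, a nuclear body protein. Over all tested genes this held for 10.2% in the lower and 6.12% in the higher direction, 16.3% in all. Over all 16 arrays, 8 members did not overlap between the lines, all in the lower direction, against 3.37% of all genes in that direction, 1.17% in the higher and 4.54% in either. Among genes above background in each line these patterns held for 16 and 7 of 41 members, where 10.5% and 3.28% of all such genes had them. The other SP100 probes gave differences of 0.01 and -0.12.

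When the lines were compared as 2 groups of 8 arrays without regard to treatment and time (unadjusted p under 0.005 and more than 2-fold), 13 members were lower and none was higher, where 3.5% of all genes were lower, 0.976% were higher and 4.48% passed in either direction. Among genes above background in each line 11 of 41 members were lower, against 2.86% of all. Of the 8 genes above, 7 were among them, while IFI6 was not. The additional genes were DTX3L, EIF2AK2, IFITM3, OAS2, OASL and XAF1. EIF2AK2 encodes the RNA-activated kinase PKR that blocks translation, and its difference of -1.07 ± 0.08 (adjusted p = 2.46e-05) missed the fold limit between the untreated lines in the first comparison. XAF1, a partner and antagonist of the apoptosis inhibitor XIAP, differed by -1.57 ± 0.23 (adjusted p = 0.00130).

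Within single conditions (adjusted p under 0.05 and more than 2-fold), 7 members were lower in untreated cells at 6 h, 6 in untreated cells at 24 h and 8 with bortezomib at 6 h. The shares of all genes that were lower were 2.09%, 2.1% and 2.24%, those that were higher 0.97%, 0.817% and 0.951%, and those that passed in either direction 3.06%, 2.92% and 3.2%. Among genes above background in each line 6, 6 and 7 of 41 members were lower, where 1.82%, 1.91% and 1.98% of all such genes were. HELZ2, IFITM1, ISG15, MX1 and PARP9 were called in each of these. IFIT1 joined with bortezomib at 6 h, with 8.50 and 8.48 in control cells against 5.82 and 6.89 in LP-1-cIAP2-eGFP cells (-2.14 ± 0.36, adjusted p = 0.0118). With bortezomib at 6 h both LP-1-cIAP2-eGFP arrays were on slide 1 and both control arrays on slide 2, so that line and slide cannot be told apart within this condition. With slide as a block, which takes the slide effect from the other conditions, 2 members, EIF2AK2 and MX1, were still lower there, where 1.06% of all genes were, and the IFIT1 difference was -1.89 (adjusted p = 0.122). The same block left 3 members in untreated cells at 24 h, where 1.58% of all genes were lower. With bortezomib at 24 h, 12 members were lower, where 3.34% of all genes were lower, 1.41% were higher and 4.74% passed in either direction, and TRIM22 was called higher although it was below background on all 4 arrays. Among genes above background in each line 10 of 41 members were lower, where 3.2% of all such genes were. With slide as a block in limma, IFIT1 (-1.73, adjusted p = 0.0525), PARP9 (-2.72, adjusted p = 0.101) and OAS2 (-3.57, adjusted p = 0.0867) lost their calls, as did TRIM22 (adjusted p = 0.0607). With array weights 3 members were lower, where 0.335% of all genes were. These weights came out equal for the 2 arrays of a condition, and were 0.126 for both LP-1-cIAP2-eGFP arrays with bortezomib at 24 h. They therefore lowered the weight of the whole condition and did not set its first replicate apart from its second. The number of calls in either direction also depended on which single array was left out. The range of those calls was not set against all genes and is no result about the members alone. Without the low-signal array 14 members were lower, 11 of them the same genes, where 2.5% of all genes were lower, and TRIM22 was not called. IFIT1 differed by -1.85 (adjusted p = 0.0185) with bortezomib at 24 h, and by -1.66 in that setting, where it was not called (adjusted p = 0.0774).

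The 8 genes kept their call when the low-signal array was left out, where DTX3L, IFITM3, OAS2, OASL and XAF1 were added and 2.96% of all genes were lower. With slide as a block all 8 kept an adjusted p under 0.05, but only ISG15 and MX1 were still called, with EIF2AK2, and within slide 1 or slide 2 alone no member was called, where 0% of all genes were called on either slide. The values within slides kept their direction, with -3.19 and -3.15 for MX1 and -2.46 and -2.37 for ISG15 on slides 1 and 2.

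Bortezomib at 6 h changed few members. In control cells IFIT1, an RNA-binding protein that recognises viral cap structures, and ISG20 rose, where 1.21% of all genes rose, 0.409% fell and 1.62% passed in either direction. IFIT1 was at 6.88 and 6.37 in untreated cells and at 8.50 and 8.48 with bortezomib, a difference of 1.87 ± 0.36 (adjusted p = 0.0339). In LP-1-cIAP2-eGFP cells IFI44 and ISG20 rose, where 0.781% of all genes rose, 0.165% fell and 0.946% passed in either direction. IFI44 was below background on both untreated arrays of that line (3.21 and 4.42) and above it on both bortezomib arrays (7.47 and 7.89), so that it rose at least 5.71-fold (adjusted p = 0.00497). In control cells IFI44 was at 5.22 and 4.60 untreated and at 6.75 and 7.13 with bortezomib, without overlap. Its difference of 2.03 ± 0.45 there narrowly missed the call (adjusted p = 0.0557, limma). The ISG20 response was 1.19 ± 0.19 in control cells (adjusted p = 0.0158) and reached 1.42 ± 0.19 (adjusted p = 0.00982) in LP-1-cIAP2-eGFP cells. In control cells the count ranged from 0 to 5 when single arrays were left out, with 0 without either bortezomib array of that line or its first untreated array at 6 h, where 0.452%, 0.606% and 0.421% of all genes were called. It was 5 without either bortezomib array of LP-1-cIAP2-eGFP at 24 h, where 2.46% and 2.43% of all genes were called.

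At 24 h more members passed the threshold with bortezomib. In control cells 14 rose and 4 fell, where 6.7% of all genes rose, 8.43% fell and 15.1% passed in either direction. In LP-1-cIAP2-eGFP cells 11 rose and 7 fell, where 7.65% of all genes rose, 13.9% fell and 21.6% passed in either direction. The median difference of the members was 0.41 in control cells and 0.32 in LP-1-cIAP2-eGFP cells, against -0.03 and -0.16 over all genes. With all arrays, the falls were close to the share of all genes in both lines. Without the low-signal array 16 members rose and 8 fell in LP-1-cIAP2-eGFP cells, 10 and 7 of them the same genes, where 8.81% of all genes rose and 9.94% fell. GBP1 was not called without that array and was below background on all 4 arrays compared, at 3.40 and 2.52 untreated and 7.25 and 4.63 with bortezomib. Some markers of other cells moved at this time too. The T cell marker CD2 was at 11.49 on the low-signal array against 5.23 to 7.82 on the others. CD3E was at 3.21 and CD8A at 5.12 there, for each its lowest level on any array. The monocyte marker CD14 was at 8.69 on that array against 4.77 to 6.72 on the others, and the epithelial keratin KRT8 at 11.30 against 9.09 to 9.78. The plasma cell markers SDC1, MZB1 and CD38 were lower with bortezomib at 24 h in both lines. The syndecan SDC1 was at 13.19 and 13.16 in untreated and at 9.84 and 10.29 in treated LP-1-cIAP2-eGFP cells, and at 11.30 and 11.62 against 9.57 and 9.74 in control cells. MZB1, a chaperone of antibody-secreting cells, went from 16.43 and 16.38 to 14.07 and 14.55, and from 15.90 and 16.05 to 13.81 and 14.31. CD38 was likewise lower on every treated array. POU2AF1, another plasma cell marker, was lower in control cells but not in LP-1-cIAP2-eGFP cells, where it was at 14.44 and 14.46 untreated and at 15.09 and 14.90 with bortezomib. GZMB, shared by dendritic and cytotoxic cells, was higher on all 4 treated arrays, being at 9.90 and 10.14 in control cells and at 10.45 and 9.30 in LP-1-cIAP2-eGFP cells with bortezomib at 24 h, against 6.73 and 6.73, and 6.88 and 6.74, in untreated cells. Their part in the results was not tested.

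**Figure D3:**
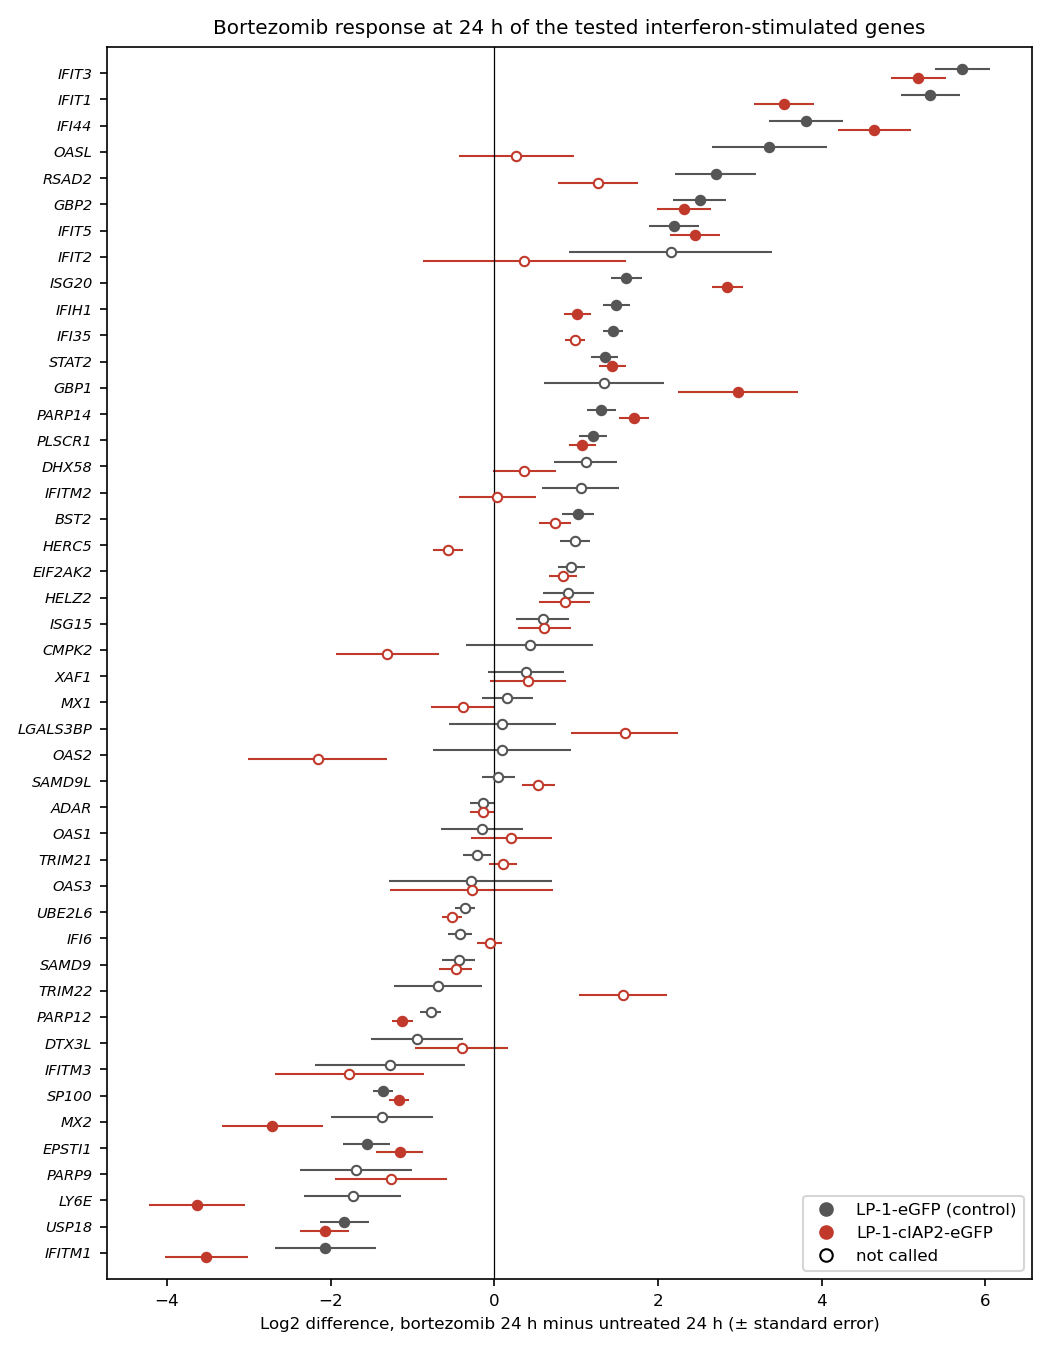
Bortezomib response at 24 h of the 46 tested interferon-stimulated genes, as the log2 difference from untreated cells at 24 h with the standard error; grey, LP-1-eGFP; red, LP-1-cIAP2-eGFP; filled points were called. IFIT3, IFIT1 and IFI44 lie farthest on the side of a rise in both lines, IFI44 from untreated signals at background, and IFITM1, USP18, EPSTI1 and SP100 fell in both.

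The 10 genes that rose in both lines were GBP2, IFI44, IFIH1, IFIT1, IFIT3, IFIT5, ISG20, PARP14, PLSCR1 and STAT2. How many of all genes rose in both lines was not counted, so that this overlap is given as a list only. IFIT3 binds and stabilises IFIT1. It was at 5.68 and 5.67 in untreated control cells and at 11.67 and 11.12 with bortezomib, and at 6.06 and 5.30 against 11.023 and 10.705 in LP-1-cIAP2-eGFP cells. IFIT3 rose by 5.72 ± 0.34 (adjusted p = 1.41e-05) and by 5.18 ± 0.34 (adjusted p = 1.04e-05), with every treated array far above every untreated array. The rise in LP-1-cIAP2-eGFP cells was 5.11 without the low-signal array, and all 10 genes were still called there.

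IFIT1 was at 5.89 and 6.54 in untreated control cells and at 11.61 and 11.48 with bortezomib, a rise of 5.33 ± 0.36 (adjusted p = 2.23e-05). In LP-1-cIAP2-eGFP cells it went from 6.12 and 6.19 to 9.49 and 9.90, a rise of 3.54 ± 0.36 (adjusted p = 1.11e-04), or of 3.80 without the low-signal array. The untreated levels of the lines thus overlapped, whereas with bortezomib both LP-1-cIAP2-eGFP arrays were below both control arrays. IFIT5 rose by 2.19 and 2.46 in control and LP-1-cIAP2-eGFP cells, and IFIT2 differed by 2.16 and 0.37 on its brightest probe without being called. The second IFIT2 value was 2.55 without the low-signal array (adjusted p = 0.116), where IFIT2 was at 2.60 against 6.80 on the replicate. A dimmer IFIT2 probe was called as risen in control cells, at least 2.14-fold (adjusted p = 0.00122).

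IFI44 was below background in untreated cells of both lines at 24 h, at 4.0 and 5.0 in control cells and 3.86 and 3.27 in LP-1-cIAP2-eGFP cells. With bortezomib it was at 8.23 and 8.39, and at 8.05 and 8.36, which is at least 13.6-fold and at least 16.2-fold higher (adjusted p = 3.08e-04 and 7.91e-05). The treated arrays of the lines lay close together.

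Among the sensors and effectors of RNA defence, IFIH1 (MDA5), a sensor of double-stranded RNA, rose by 1.49 and 1.01, and ISG20 by 1.61 and 2.84 in control and LP-1-cIAP2-eGFP cells. With slide as a block IFIH1 lost its call in LP-1-cIAP2-eGFP cells, where 0.97 (adjusted p = 0.00628, limma) missed the fold limit. STAT2, the transcription factor of the pathway, was at 14.38 and 13.98 in untreated control cells and at 15.55 and 15.51 with bortezomib, and at 13.80 and 13.68 against 15.09 and 15.27 in LP-1-cIAP2-eGFP cells. It rose by 1.35 ± 0.16 (adjusted p = 3.75e-04) and by 1.44 ± 0.16 (adjusted p = 2.01e-04). In LP-1-cIAP2-eGFP cells the values without the low-signal array were 1.27 for IFIH1, 2.74 for ISG20 and 1.54 for STAT2. Treated and untreated arrays did not overlap in either line.

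BST2, IFI35, OASL and RSAD2 passed the threshold as risen in control cells alone. RSAD2 was at 5.30 and 5.73 in untreated control cells and at 8.11 and 8.33 with bortezomib (2.71 ± 0.49, adjusted p = 0.00351), and OASL rose by 3.36 ± 0.70 (adjusted p = 0.00722). Both were below background on all LP-1-cIAP2-eGFP arrays at either treatment. The difference between the lines in these responses was not called, and without the low-signal array BST2, IFI35 and OASL were called as risen in LP-1-cIAP2-eGFP cells too.

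Members that were lower in LP-1-cIAP2-eGFP cells did not all move with bortezomib. Of the 8 genes called between the lines, only RSAD2 rose and only IFITM1 fell in control cells at 24 h. MX1 differed by 0.16 ± 0.31 with bortezomib in control cells (adjusted p = 0.815) and ISG15 by 0.59 ± 0.32 (adjusted p = 0.258). In LP-1-cIAP2-eGFP cells IFITM1 and LY6E were called as fallen. Without the low-signal array ISG15 (1.18, adjusted p = 0.00537) and HELZ2 (1.39, adjusted p = 0.00355) were called as risen there, and LY6E was called as fallen in control cells (-1.74).

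The genes that fell in both lines at 24 h were EPSTI1, IFITM1, SP100 and USP18. IFITM1 was at 10.78 and 11.13 in untreated control cells and at 8.89 on the measured bortezomib array, and at 8.11 and 8.04 against 3.56 and 5.55 in LP-1-cIAP2-eGFP cells. The differences were -2.06 ± 0.62 (adjusted p = 0.0462) and -3.52 ± 0.51 (adjusted p = 0.00109), the second being -2.59 without the low-signal array. On this probe the call in control cells was lost when any 1 of 13 of the arrays was left out. The second IFITM1 probe, measured on all 4 control arrays, was called there with -2.73 ± 0.40 (adjusted p = 0.00105, limma). In LP-1-cIAP2-eGFP cells that probe was below background on both treated arrays and fell at least 1.54-fold (adjusted p = 0.0131, limma).

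USP18, which also dampens signalling at the interferon receptor, was at 7.82 and 7.98 in untreated control cells and at 5.99 and 6.14 with bortezomib, and at 7.52 and 7.12 against 5.75 and 4.75 in LP-1-cIAP2-eGFP cells. It fell by 1.83 (standard error 0.30, adjusted p = 0.00195) in control cells, and at least 2.33-fold in LP-1-cIAP2-eGFP cells, where it was below background on both treated arrays (adjusted p = 7.65e-04). EPSTI1 went from 5.67 and 6.01 to 4.11 and 4.46 in control cells and from 5.79 and 5.08 to 4.5 and 4.07, below background, in LP-1-cIAP2-eGFP cells. The EPSTI1 difference in control cells was -1.56 ± 0.29 (adjusted p = 0.00371), and no fold is given for LP-1-cIAP2-eGFP cells, where the adjusted p was 0.0142 and the untreated level did not exceed the bound. SP100 fell, with -1.36 and -1.17, while its other probes gave 0.37 and -0.75 in control cells and -0.18 and 0.27 in LP-1-cIAP2-eGFP cells. USP18, EPSTI1 and SP100 were still called in that line without the low-signal array (adjusted p = 1.20e-04, 0.0164 and 2.59e-04).

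LY6E, MX2 and PARP12 passed the threshold as fallen in LP-1-cIAP2-eGFP cells alone. LY6E was at 9.62 and 9.90 untreated and at 4.90 and 7.35 with bortezomib, where the lower value is that of the low-signal array. Its difference was -3.63 ± 0.59 (adjusted p = 0.00144) and -2.44 without that array. In control cells LY6E went from 11.39 and 11.48 to 9.56 and 9.84, a difference of -1.73 ± 0.59 (adjusted p = 0.0664). MX2 was at 6.59 and 6.15 untreated and at 2.59 and 4.73, both below background, with bortezomib, so that it fell at least 1.2-fold (adjusted p = 0.00934). In control cells MX2 was at 6.56 and 7.48, and at 5.19 and 6.11 with bortezomib, without being called. Without the low-signal array LY6E and MX2 were called in control cells too, with -1.74 (adjusted p = 1.53e-04) and -1.42 (adjusted p = 0.0297). PARP12 was lower with bortezomib in control cells as well. With slide as a block it differed by -0.78 there (adjusted p = 0.00876, limma), which missed the fold limit, and by -1.12 in LP-1-cIAP2-eGFP cells. Its difference of responses was -0.34 (adjusted p = 0.633, limma).

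IFITM3 went from 9.28 and 9.62 to 7.66 and 8.68 in control cells and from 7.64 and 7.47 to 3.87 and 7.70 in LP-1-cIAP2-eGFP cells. Its difference of -1.77 ± 0.91 in the latter line (adjusted p = 0.178) came to 0.14 without the low-signal array. IFITM2 was at 5.84 and 5.83, and at 6.14 and 7.63 with bortezomib, in control cells, and at 5.89 and 5.86 against 5.46 and 6.38 in LP-1-cIAP2-eGFP cells, and was not called in either line.

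**Figure D4:**
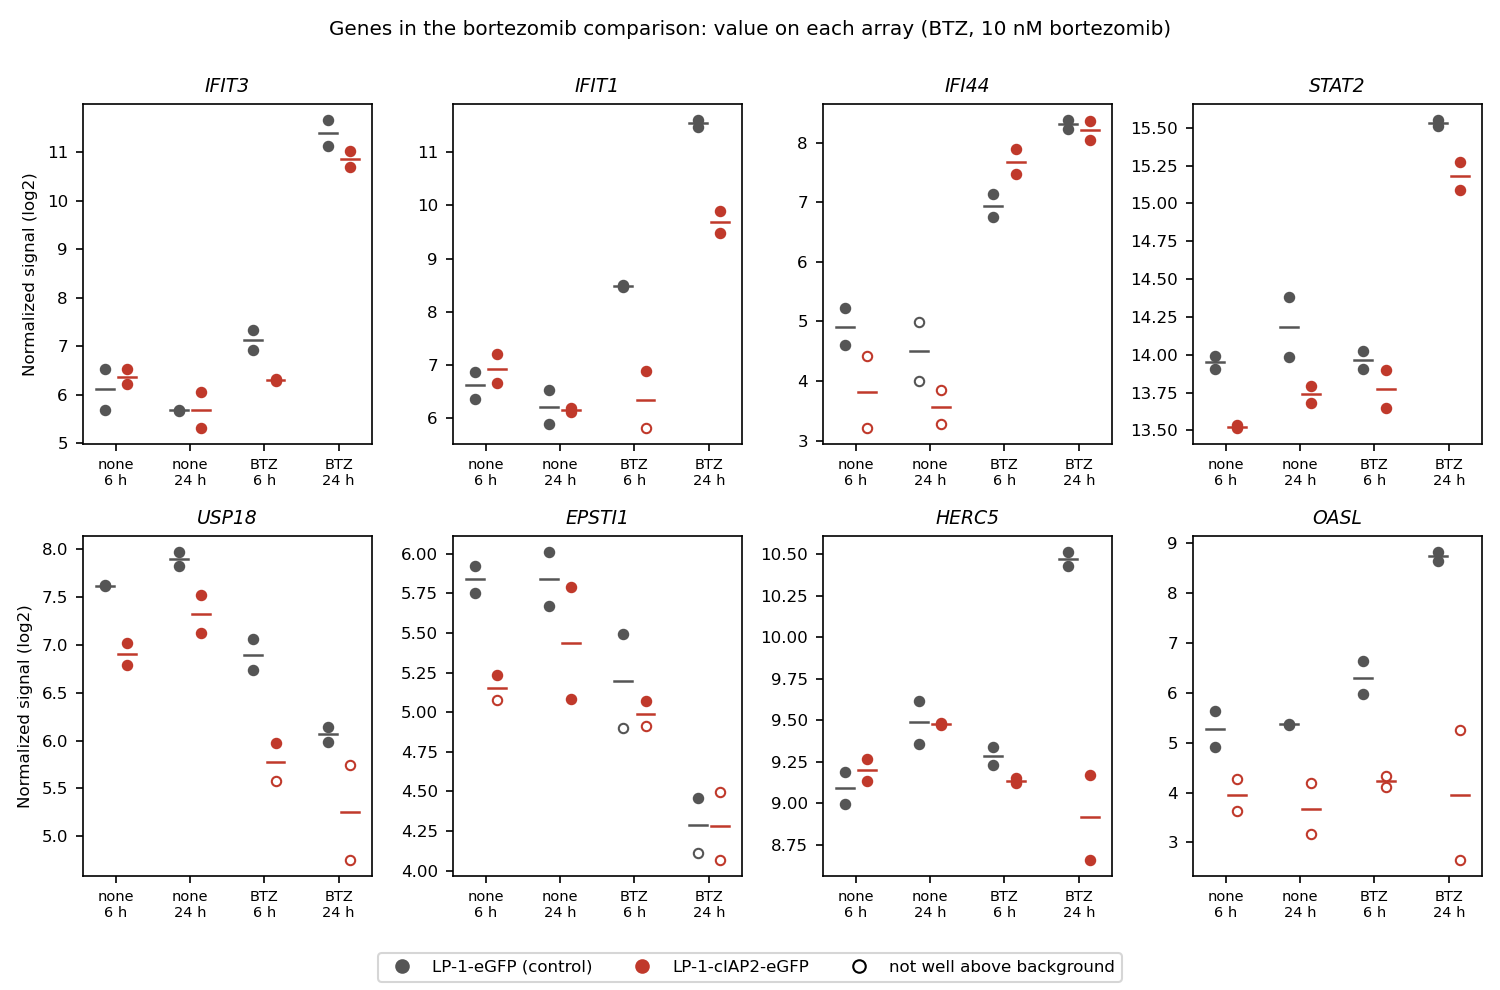
Normalized log2 signal of 8 interferon-stimulated genes on each array, by treatment (none or bortezomib, BTZ) and time; red, LP-1-cIAP2-eGFP; grey, LP-1-eGFP; horizontal lines, condition means; open circles, not well above background. With bortezomib at 24 h IFIT1 lay at 11.61 and 11.48 in LP-1-eGFP and at 9.49 and 9.90 in LP-1-cIAP2-eGFP cells, while IFI44 lay between 8.05 and 8.39 in both lines.

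Whether the response to bortezomib differed between the lines was tested directly, and no member passed an adjusted p of 0.05 at 6 h or at 24 h by limma, where 0% and 0.104% of all genes passed, the latter as 0.0793% with a higher and 0.0244% with a lower response in LP-1-cIAP2-eGFP cells. At an unadjusted p under 0.05 there were 5 members at 6 h and 7 at 24 h, where 1.54% and 8.71% of all genes passed that limit. The 7 were HERC5, IFI35, IFIT1, ISG20, LY6E, OASL and TRIM22. The response of IFIT1 in LP-1-cIAP2-eGFP cells minus that in control cells came to -2.45 ± 0.51 for the earlier time (adjusted p = 0.832) and to -1.79 ± 0.51 for the later one (adjusted p = 0.419). HERC5, the ligase that attaches ISG15, had the smallest adjusted p at 24 h, 0.109, with a difference of -1.55 ± 0.26. It was at 9.36 and 9.62 untreated and at 10.52 and 10.43 with bortezomib in control cells, and at 9.47 and 9.49 against 8.66 and 9.17 in LP-1-cIAP2-eGFP cells. Without the low-signal array HERC5 was called (-1.30, adjusted p = 0.0267), where 0.477% of all genes were. Without the replicate of that array, which leaves the low-signal array alone in its condition, 17 members and 28% of all genes were called.

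Time in culture was compared in untreated cells. No member passed between 24 h and 6 h in control or in LP-1-cIAP2-eGFP cells by limma, where 0% and 0.0122% of all genes passed in either direction. At an unadjusted p under 0.05 there were 4 members, IFI6, ISG20, RSAD2 and TRIM22, in control cells and 1, IFIT5, in LP-1-cIAP2-eGFP cells, where 3.13% and 3.25% of all genes passed that limit.

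The other genes of the pathway, a list of 36 ligands, receptors, kinases, transcription regulators, sensors and inhibitors of which 30 were tested, were examined beside the members. Of the interferon ligands IFNG, IFNK and IFNW1 were not above background on any array, while IFNB1 was so on 5, IFNL1 on 6 and IFNE on 11 of 16. IFNA1 had no matched probe. Between the lines 4 genes of the list were lower and none was higher, against the 2.43% and 0.958% of all genes given above. SOCS1 and SOCS3, both feedback inhibitors of cytokine receptors, differed by -1.26 ± 0.17 (adjusted p = 7.35e-04) and -3.51 ± 0.50 (adjusted p = 9.94e-04), the latter with SOCS3 above background on only 2 of 8 LP-1-cIAP2-eGFP arrays, so that its size rests mostly on signals at background. STING1, the adaptor of DNA sensing, differed by -1.30 ± 0.09 (adjusted p = 8.76e-06), and the nucleic acid sensor ZBP1 by -2.29 ± 0.10 (adjusted p = 6.70e-07). A second, dimmer ZBP1 probe differed by -1.30 ± 0.30 (adjusted p = 0.0187, limma) and was not called. SOCS1 (-1.24, adjusted p = 0.00158) and SOCS3 (-3.57, adjusted p = 0.00236) missed the threshold of 0.001 without the low-signal array, while STING1 and ZBP1 kept their calls.

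No receptor gene passed between the averaged lines, with differences of 0.10 for IFNAR1, 0.42 for IFNAR2, 0.07 for IFNGR1, -0.04 for IFNGR2 and -0.11 for IL10RB. A dimmer IFNAR2 probe differed by 0.63 (adjusted p = 2.49e-04, limma) and missed the fold limit. By the brightest probes IFNLR1, the ligand-binding chain for interferon lambda, had the largest difference of the receptor genes. Its untreated levels were 8.30, 8.42, 8.79 and 8.5 in control cells and 10.04, 10.41, 10.35 and 10.56 in LP-1-cIAP2-eGFP cells, without overlap. The averaged difference was 1.43 ± 0.28 (adjusted p = 0.00684), and without the low-signal array it was 1.74 (adjusted p = 7.0e-06) and was called. The other IFNLR1 probes gave 0.42 and 1.46 and were not called. In the comparison of 2 groups of 8 arrays IFNLR1 was the 1 pathway gene called higher, where 0.976% of all genes were higher. There 3 pathway genes, SOCS3, STING1 and ZBP1, were lower, where 3.5% of all genes were. With bortezomib at 24 h, 4 of the 30 pathway genes rose and 4 fell in control cells, and 5 rose and 7 fell in LP-1-cIAP2-eGFP cells, against the 6.7%, 8.43%, 7.65% and 13.9% of all genes given above. IFNAR2 was at 12.40 and 12.71 in untreated control cells and at 10.62 and 10.85 with bortezomib, and at 12.93 and 13.14 against 11.00 and 11.23 in LP-1-cIAP2-eGFP cells. The differences were -1.82 ± 0.16 (adjusted p = 6.18e-05) and -1.92 ± 0.16 (adjusted p = 3.57e-05), with no overlap of treated and untreated arrays. IFNAR1 went from 10.81 and 10.89 to 9.44 and 9.72 in control cells and from 10.82 and 11.02 to 9.23 and 10.40 in LP-1-cIAP2-eGFP cells, with differences of -1.27 (adjusted p = 0.0153) and -1.11 (adjusted p = 0.0238). The second call was lost without the low-signal array (-0.52, adjusted p = 0.0561).

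The receptor for interferon gamma split. IFNGR1, its ligand-binding chain, was at 10.29 and 10.12 in untreated control cells and at 11.35 and 11.15 with bortezomib, and at 10.26 and 10.07 against 11.39 and 11.88 in LP-1-cIAP2-eGFP cells. It rose by 1.04 ± 0.18 (adjusted p = 0.00284) and by 1.48 ± 0.18 (adjusted p = 3.06e-04). IFNGR2, the second chain, went from 8.71 and 9.01 to 8.39 and 8.41 in control cells, without being called, and from 9.0 and 8.99 to 7.48 and 8.06 in LP-1-cIAP2-eGFP cells, a difference of -1.23 ± 0.20 (adjusted p = 0.00166). Without the low-signal array IFNGR2 differed by -0.95 (adjusted p = 0.00457) and missed the fold limit. IRF7, a transcription factor of interferon production, rose by 1.55 and 1.96, and the kinase TBK1, which activates it, by 1.54 and 1.34 in control and LP-1-cIAP2-eGFP cells. MYD88, an adaptor of Toll-like receptors, fell, with -1.13 and -1.58, the second being -1.06 without the low-signal array.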

How the data were processed

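The authors deposited 1 scanner file per array, and per the file headers the intensity of each spot had been background-subtracted and detrended by Agilent Feature Extraction 10.7.3.1, without normalization between arrays, with flags for outlier spots and for spots well above background. A further deposited table held log2 values, quantile normalized by the authors, which proved to be centred on the median of each probe. It served as an alternative.

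Outlier spots were left out, spots of a probe were averaged as log2 values, and the 16 arrays were quantile normalized (limma 3.58.1, R 4.3.3). Probes were kept where some condition had both of its arrays well above background, 33731 in all, and 28174 of 50599 gene probes (55.7%) were matched to symbols by RefSeq accession. The brightest probe of a gene is reported. limma's lmFit and eBayes gave each of the 8 conditions a mean, with a variance moderated by 1.61 prior degrees of freedom, and p-values were adjusted by Benjamini-Hochberg over all tested probes. Calls between the averaged lines needed an adjusted p below 0.001 and a change over 2-fold in untreated cells. Other comparisons needed an adjusted p below 0.05 and a change over 2-fold, with no fold limit for the difference of responses. The 2-group comparison used an unadjusted p under 0.005. Where all arrays on one side of a comparison were at background, the fold is a bound against the lowest signal well above background on each array. The fit was tested on simulated data.

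The alternatives were scaling to the 75th percentile, normexp with an offset of 50, the authors' log2 values, other filters on signal, blocks for replicate number or slide, array weights, a 3-way ANOVA, probes averaged and each array left out. A lone remaining array was assumed to vary like the other conditions. Nothing beyond the term biological replicates says that the 2 arrays of a condition came from separate cultures, so that p-values measure the spread between these samples.

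The members, the gene lists, the tests and the rule for named genes were chosen with earlier results of these data known. By that rule, values by array are given for the members called between the averaged lines, in each line the top 3 rises and top 3 falls at 24 h of bortezomib, STAT2, the IFITM genes and the interferon receptors. RSAD2 at 24 h, HERC5, GBP1, OAS2, PLSCR1, IFIT2, IFNLR1, CD2, CD3E, CD8A, CD14, KRT8, SDC1, MZB1, CD38, POU2AF1 and GZMB were added after their values were seen. Some genes of the pathway are not reported here.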

Additional observations from a re-analysis of the deposited data

Results flagged for a closer look

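For 4 members the arrays of the lines moved in opposite directions with bortezomib, each treated array of one line lying above and each treated array of the other below its untreated arrays. The difference between the lines was tested with limma and did not pass in any of them with all arrays. For HERC5 at 24 h the response in LP-1-cIAP2-eGFP cells minus that in LP-1-eGFP cells was -1.55 (unadjusted p = 1.46e-04, adjusted p = 0.109), and without the low-signal array it was -1.30 and passed (adjusted p = 0.0267). For OAS2, an oligoadenylate synthetase, it was -2.25 at 24 h (adjusted p = 0.632), where treated LP-1-cIAP2-eGFP arrays were at 2.79 and 6.34 against 6.78 and 6.66 untreated, and the value of 2.79 is that of the low-signal array, without which the OAS2 difference was -0.49 (adjusted p = 0.876). For PLSCR1 at 6 h it was -0.76 (adjusted p = 1.0), since control cells went from 9.57 and 9.64 to 10.24 and 10.15 and LP-1-cIAP2-eGFP cells from 10.36 and 10.55 to 10.22 and 10.34. For IFITM3 at 6 h it was 0.46 (adjusted p = 1.0). The pattern was found in 2 of 46 members (4.35%) at each time, against 3.2% of all tested genes at 6 h and 2.01% at 24 h.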

How the results depend on the processing

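The counts of called members below are set against those of the report, 8 for the averaged lines, 13 for the lines as 2 groups, 7, 6, 8 and 13 for the lines in untreated cells at 6 h and 24 h and with bortezomib at 6 h and 24 h, 2 and 2 for bortezomib at 6 h and 18 and 18 at 24 h in control and LP-1-cIAP2-eGFP cells, and 0 for the difference of responses at 24 h. The shares of all genes for these counts are 3.39%, 4.48%, 3.06%, 2.92%, 3.2%, 4.74%, 1.62%, 0.946%, 15.1%, 21.6% and 0.104%. When a probe had to be above background on each of the 16 arrays, which tests fewer genes, they were 3, 3, 3, 3, 3 and 4 for the line comparisons, 1 for LP-1-cIAP2-eGFP at 6 h, 10 and 9 at 24 h, and 1 for the difference of responses, out of 21 members, where 3.1%, 2.56%, 3.11%, 3.3%, 3.34%, 4.46%, 1.65%, 18.9%, 23.9% and 0.65% of all genes were called. With slide as a block the averaged lines gave 3, untreated cells at 24 h 3, bortezomib at 6 h 2, and control cells at 6 h of bortezomib 1, where 1.91%, 2.24%, 1.53% and 0.988% of all genes were called. Within slide 1 and within slide 2 the averaged lines gave 0 and 0, and 0% of all genes. At an adjusted p under 0.05 in place of 0.001, and with no fold limit, they gave 29, and 21.8% of all genes. Array weights gave 13, 10, 15 and 3 for the lines by condition, and 8 and 4 for bortezomib at 6 h, where 6.34%, 3.86%, 5.7%, 0.439%, 3.68% and 1.95% of all genes were called. For bortezomib at 6 h in control cells no filter on signal gave 0 and averaged probes 4, with 0.945% and 1.97% of all genes. For the difference of responses at 24 h normexp gave 2 and averaged probes 1, with 0.305% and 0.189% of all genes. Of the pathway genes, called 4 times between the lines and 8 and 12 times with bortezomib at 24 h, the line count was 2 with the authors' values, 2 without a filter, 1 with all arrays above background and 2 with the slide block, beside 3.21%, 2.91%, 3.1% and 1.91% of all genes. The bortezomib counts were 5 and 5 with all arrays above background, and 4 with array weights in LP-1-cIAP2-eGFP cells, where 11.8% of all genes were called. Apart from the differing numbers of genes and arrays tested, the cause was not tested.

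With single arrays left out the counts ranged from 6 to 13 for the averaged lines, 12 to 14 for the 2 groups, 3 to 10, 2 to 12, 2 to 14 and 7 to 21 for the lines by condition, 0 to 5 and 1 to 3 for bortezomib at 6 h, 16 to 22 and 16 to 24 at 24 h, 0 to 0 and 0 to 17 for the difference of responses, and 0 to 1 and 0 to 0 for time. For the pathway genes they ranged from 2 to 4, 5 to 10 and 9 to 18. The averaged lines reached 13 without either bortezomib array of LP-1-cIAP2-eGFP at 24 h, and the counts by condition were lowest without an array of that condition. The share of all genes moved too, for bortezomib at 6 h in control cells and for the difference of responses at 24 h. These ranges are therefore no result about the members or the pathway genes alone. Replicate numbers did not pair the arrays, since 7 of 28 pairs of conditions had a correlation of deviations over 0.1 (median 0.0389). The replicate block gave 4 for bortezomib at 6 h in control cells, with 1.84% of all genes, and moved no other count by over 1.5 times. Counting only genes above background on both sides of a comparison, an alternative chosen after seeing the data, moved no count by over 1.5 times. No called value of a named gene changed direction under the alternatives run. Where a member was not above background in a condition, signal limited the result to a bound or to no fold, as for RSAD2, OASL, GBP1 and TRIM22.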
